A study of Rattus norvegicus with 8 samples.

Results

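Rat cardiac myofibroblasts exposed to 2 µA microcurrent were compared with untreated myofibroblasts (MFs) by RNA sequencing. There were 2 libraries a side, that is 4 of the 8 libraries of the series. The currents, written 1 µA and 2 µA as in the labels, are densities of 1 and 2 µA/cm^2 in the methods. The 4 libraries were chosen by their labels. MFs were derived from neonatal cardiac fibroblasts (CFs) of Wistar Kyoto rats by repeated passaging in low-serum medium. The 2 µA cells were such MFs under direct current without polarity reversal for 72 h, kept in standard medium with 10% FBS. The medium of the untreated MFs during those 72 h is not given in the sources used here, so the current and any difference in medium cannot be told apart. The other 4 libraries, 2 of CFs and 2 of MFs under 1 µA, served to estimate the spread between replicates and are given beside the results.

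Cardiac fibroblasts maintain the collagen matrix of the heart. After injury they turn into myofibroblasts, which build contractile stress fibres and lay down scar matrix. Microcurrent is a weak direct current led through the medium by electrodes. The comparison of 2 µA with MF asks which transcripts of an established myofibroblast differ when the current has been applied.

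The tables name genes by rat Ensembl ID. None of the 23330 IDs was paired with a symbol by the RefSeq gene table used here, so the functions of the genes below are not stated and the labelled cell type was not checked against marker genes. A bulk library sums over all cells of a culture, so fewer cells of a type and less RNA per cell cannot be told apart.

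The MF and 2 µA libraries held from 26473085 to 31148230 estimated counts, and 13849 genes passed the filter on low counts. Over the 11949 of these with a mean of at least 50 counts, the MF replicates differed by more than 2-fold in 59 genes and the 2 µA replicates in 522 genes. The 1 µA replicates did so in 154 genes and the CF replicates in 802. The MF replicates were thus the closest pair of the series and the 2 µA replicates the least alike of the myofibroblast pairs. In every group the replicates differed by more than sampling noise, with a chi-square per gene of 16.9 in MF and 73.1 at 2 µA, so no library was counted as a copy of another.

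The transcriptome of 2 µA cells differed from that of untreated MFs in 640 genes, 272 of them higher and 368 lower at 2 µA. A gene was called where edgeR's quasi-likelihood test gave a Benjamini-Hochberg adjusted p below 0.05 and the absolute log2 fold change was at least 1. The 640 genes were 4.62% of the genes tested, with 1.96% called higher and 2.66% called lower. Over all tested genes the median log2 fold change was 0.003, with quartiles of -0.28 and 0.27. The scaling between libraries takes most genes as unchanged and so largely sets this median near 0, which is not a result. With upper quartile scaling the median was 0.055, with 337 genes called higher and 353 lower. The smallest adjusted p of the comparison was 9.35e-04 in edgeR's test. A stricter adjusted p of under 0.01, with a fold change of at least 2, left 14 higher and 35 lower genes.

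These counts rest on the MF libraries. Without MF replicate 1 the same test called 9 genes, all lower at 2 µA, and without MF replicate 2 it called 11 genes, 10 of them lower. In those fits the lone MF library was assumed to vary like the other groups. Without 2 µA replicate 1 there were 268 calls and without 2 µA replicate 2 there were 400, of which 205 and 274 were among the 640. The balance turned without 2 µA replicate 1, to 150 higher and 118 lower genes, and was 160 higher and 240 lower without 2 µA replicate 2. The libraries outside the comparison changed the count as well, since they set the spread. Leaving out 1 µA replicate 1 or 2 gave 312 or 291 genes, and leaving out CF replicate 1 or 2 gave 996 in either case.

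**Figure D1:**
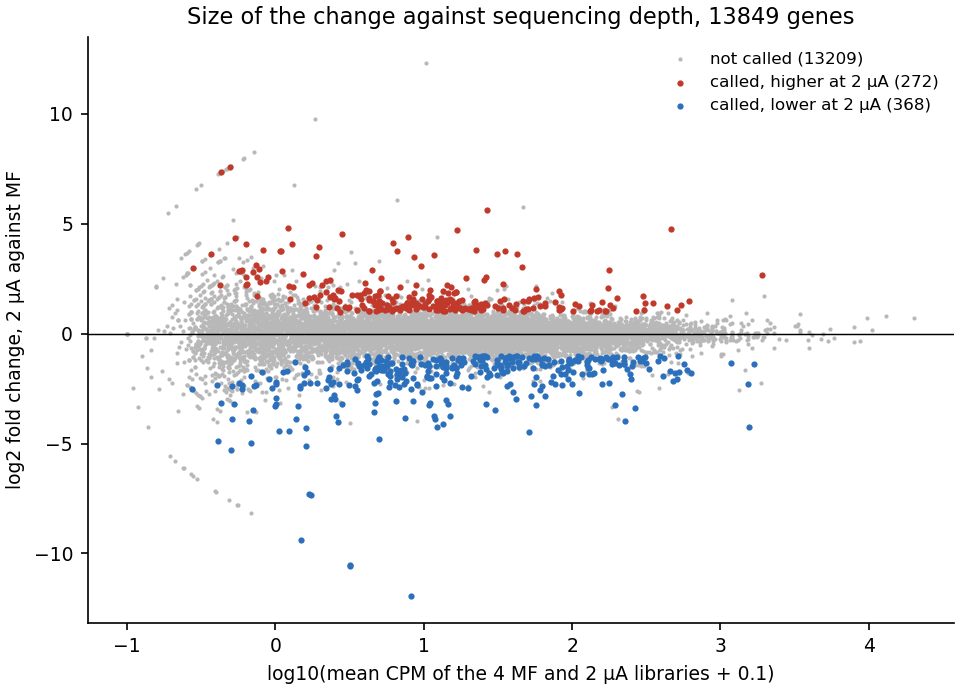
Log2 fold change of 2 µA against MF (vertical axis) against the log10 of the mean CPM (counts per library size) of the 4 libraries (horizontal axis), 1 point a gene, with 272 genes called higher in red and 368 called lower in blue. Called genes lie at all depths, and the scatter is widest among genes with few counts, where points without a call also reach large values.

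The median change was larger among the genes called lower than among those called higher. The higher genes had a median rise of 2.74-fold, with quartiles of 2.27-fold and 3.91-fold, and a median standard error of 0.27 on the log2 scale. The lower genes had a median fall of 3.14-fold, with quartiles of 2.43-fold and 4.91-fold, and a median standard error of 0.28. At least 4-fold changes were found in 66 of the higher and 124 of the lower genes. Changes of at least 8-fold were found in 28 higher and 48 lower genes, and of at least 16-fold in 12 and 19. Most called genes thus moved by less than 4-fold, 206 of the higher and 244 of the lower ones.

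The share of a library taken by the called genes shows how large the change was in estimated counts rather than in genes. It is not corrected for transcript length. The 272 higher genes held 0.592% and 0.598% of the estimated counts in the MF libraries, and 1.95% and 1.76% in the 2 µA libraries. The 368 lower genes held 4.44% and 4.24% in MF, and 1.391% and 1.399% at 2 µA. The groups do not overlap in either share, as follows from how the genes were called. The share of counts lost from the lower genes exceeded the share gained by the higher ones. In the CF libraries, which took no part in the calls other than through the spread, the higher genes held 1.15% and 0.931% and the lower genes 1.65% and 1.88%. In the 1 µA libraries the shares were 1.83% and 1.97% for the higher genes and 1.73% and 1.363% for the lower genes.

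**Figure D2:**
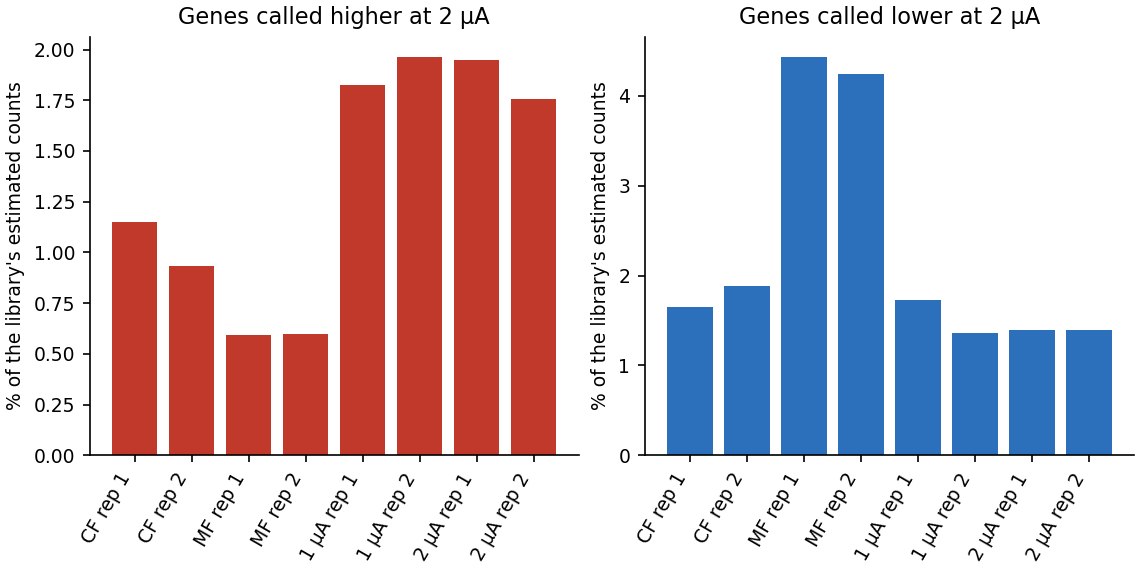
Percent of each library's estimated counts (vertical axis, from 0) held by the 272 genes called higher (left) and the 368 genes called lower (right) at 2 µA, 1 bar a library. The MF libraries stand at 0.592% and 0.598% for the higher genes and at 4.44% and 4.24% for the lower genes, and all treated libraries lie on the same side of them as the 2 µA libraries.

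Genes were sorted by their mean CPM over the 4 libraries. CPM, the count scaled to a common library size, is not corrected for transcript length, so these classes group genes by the depth behind them. Among 1971 genes at 100 CPM or above, 27 were called higher and 71 lower, which is 1.37% and 3.60% of the class. The 27 had a median of 105 CPM in MF and 282 CPM at 2 µA, with log2 fold changes from 1.01 to 4.74. The 71 had a median of 313 CPM in MF and 112 CPM at 2 µA, with log2 fold changes from -4.25 to -1.01. In this deepest class lower genes thus outnumbered higher ones.

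From 10 to 100 CPM, 115 genes were called higher and 151 lower, or 1.59% and 2.08% of 7248 genes, with median log2 fold changes of 1.29 and -1.46. From 1 to 10 CPM there were 106 higher and 120 lower genes, or 3.34% and 3.78% of 3176, with medians of 1.56 and -1.84. Below 1 CPM the numbers were 24 and 26 of 1454 genes. Of the higher genes, 46 were below 1 CPM in both MF libraries, and of the lower genes, 60 were below 1 CPM in both 2 µA libraries. For these genes a level near 0 on one side sets the fold change.

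The gene with the most counts in each of the 4 libraries was ENSRNOG00000003897, singled out after its values were seen. It was at 16837 and 13997 CPM in MF and at 26198 and 24188 CPM at 2 µA, so both treated libraries were above both untreated ones. Its log2 fold change was 0.71 with a standard error of 0.17, which is below the size of 1 that a call needs. The adjusted p was 0.0520 in edgeR's quasi-likelihood test. The CF libraries had 33460 and 29300 CPM, and the 1 µA libraries 26289 and 25859 CPM. In the matrix of whole-number counts described below, its log2 fold change of 2 µA against MF was 0.72 (adjusted p = 0.0433 in edgeR's test). Of the 10 genes with the most estimated counts, edgeR called 0 between 2 µA and MF, and DESeq2 called 0. An unadjusted p below 0.05 in edgeR's test was found for 3 of them. Over all 13849 tested genes, edgeR called 4.62%, and 3807 had an unadjusted p below 0.05. So few genes do not set the most abundant transcripts apart from the rest.

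Of the genes called in the same direction in both count tables (the estimated counts and the matrix of whole-number counts described below), ENSRNOG00000002960 had the highest fitted log2 fold change, a rank that rests on the absence of counts in MF. It had no counts in either MF library and 22 and 19 at 2 µA. That is at least 5.87-fold higher against a floor of 3 counts per MF library, and the adjusted p was 0.0240 in edgeR's test. There were 11 and 4 counts in CF, and 14 and 20 at 1 µA. The treated libraries were alike and all above CF, but the gene is one of few counts, at 0.661 ± 0.0647 CPM (SD, n = 2) at 2 µA.

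ENSRNOG00000022432 came next by fitted fold change, with 0 and 4 counts in MF against 111 and 24 at 2 µA. The ratio of counts per effective library size was 29.0, with an exact 95% counting interval from 11.1 to 108. The groups did not overlap, but the 2 µA replicates were 3.57 and 0.777 CPM, a spread wider than for the other 3 genes named by the rule. The adjusted p of 0.0462 in edgeR's test was just under the threshold. It rose to between 0.0871 and 0.237 without any one of MF replicate 1 or 2, 1 µA replicate 1 or 2, or 2 µA replicate 1, so the call rests on each of those libraries. CF had 2 and 1 counts and 1 µA had 74 and 85.

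The lowest fitted fold changes among genes called in both tables were those of ENSRNOG00000008478 and ENSRNOG00000019660. ENSRNOG00000008478 had 99 and 75 counts in MF, and 1 and 0 at 2 µA. The ratio of MF to 2 µA was 202, with an exact 95% counting interval from 35.8 to 8038, and the adjusted p was 0.0106 in edgeR's test. The 1 µA libraries had 3 and 2 counts and the CF libraries 0 and 2, so the MF libraries alone held this transcript in number.

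ENSRNOG00000019660 was likewise highest in MF, with 74 and 93 counts in MF and 1 and 0 at 2 µA. The ratio of MF to 2 µA was 194, with an exact 95% counting interval from 34.4 to 7717, and the adjusted p was 0.0104 in edgeR's test. There were 2 and 0 counts at 1 µA, and 2 in each CF library. Both genes lost the call without MF replicate 1 (adjusted p = 0.110 for each in edgeR's test) and without MF replicate 2 (0.0860 and 0.0907), as did ENSRNOG00000002960 (0.155 and 0.123). The last gene also lay just past the threshold without any 1 of the treated libraries, with an adjusted p of 0.0523 to 0.0668 in edgeR's test.

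**Figure D3:**
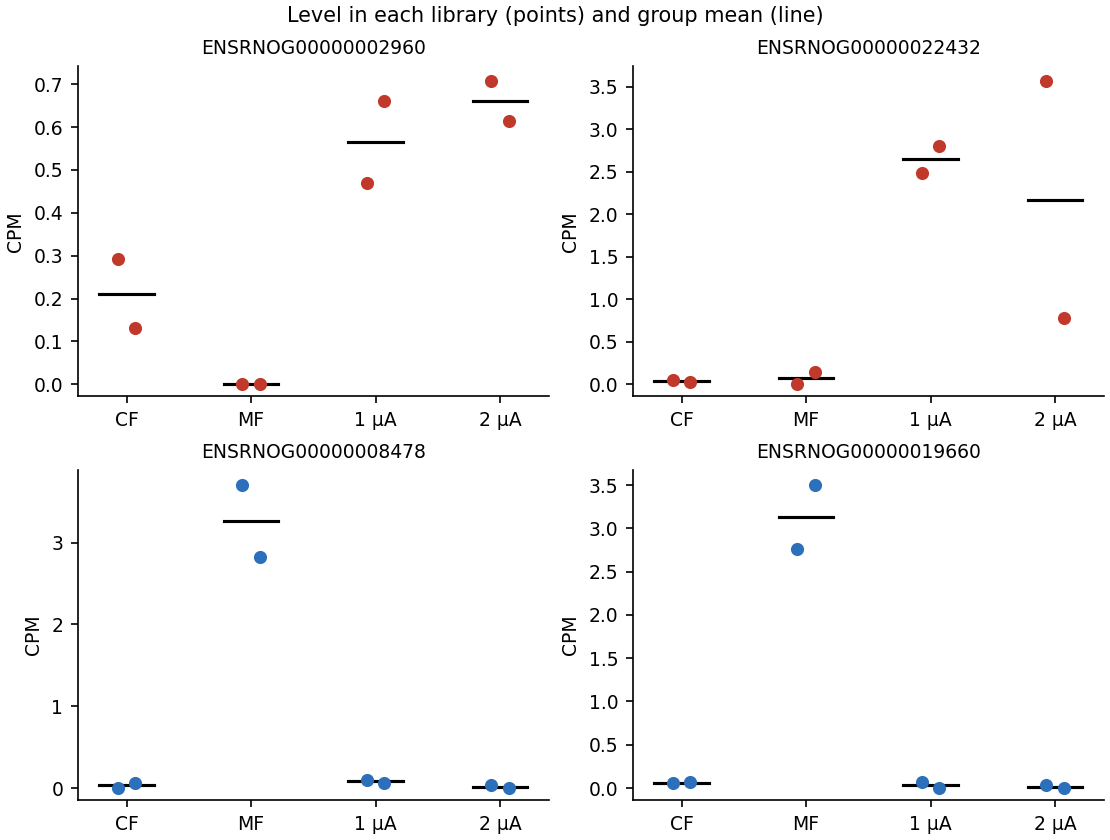
CPM (vertical axes, from 0) of the 4 genes in each of the 8 libraries (points), by group, with the group mean as a line. ENSRNOG00000002960 and ENSRNOG00000022432 are near 0 in MF and above it under both currents, and ENSRNOG00000008478 and ENSRNOG00000019660 are near 0 in all groups other than MF.

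The intervals above cover counting error only. For a single gene taken alone, 2 libraries against 2 allow no two-sided exact permutation p below 0.333, so the calls depend on the spread shared across genes and groups.

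Each 2 µA library was then set against the MF mean on the log2 CPM scale with a prior count of 2. All 272 higher genes were above the MF mean and all 368 lower genes below it in both 2 µA libraries. A difference of at least 2-fold was reached by 226 of the higher genes in replicate 1, by 255 in replicate 2 and by 209 in both. Of the lower genes, 355 reached it in replicate 1, 328 in replicate 2 and 315 in both. Since the genes were called on these libraries, and the called rises were smaller than the called falls, these counts are a description.

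Among the called genes with a mean of at least 50 counts, the 2 µA replicates were over 2-fold apart in 19 of 241 higher genes (7.88%) and in 21 of 318 lower genes (6.60%). The same spread was found in 4.37% of all genes of that depth. For the higher genes, replicate 1 had the larger value in 15 of the 19. For the lower genes, replicate 2 had it in 14 of the 21. Replicate 1 was thus farther from MF in most genes on which the libraries were apart.

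In all 272 higher genes both 2 µA libraries were above both MF libraries, and in all 368 lower genes both were below. That largely follows from how the genes were called, and of all tested genes 31.1% had both 2 µA libraries above and 31.4% both below. A stricter reading takes each 2 µA library against each MF library. Every pairing differed by at least 2-fold upward in 174 of the 272 higher genes and downward in 286 of the 368 lower genes, against 2.06% and 3.41% of all tested genes.

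**Figure D4:**
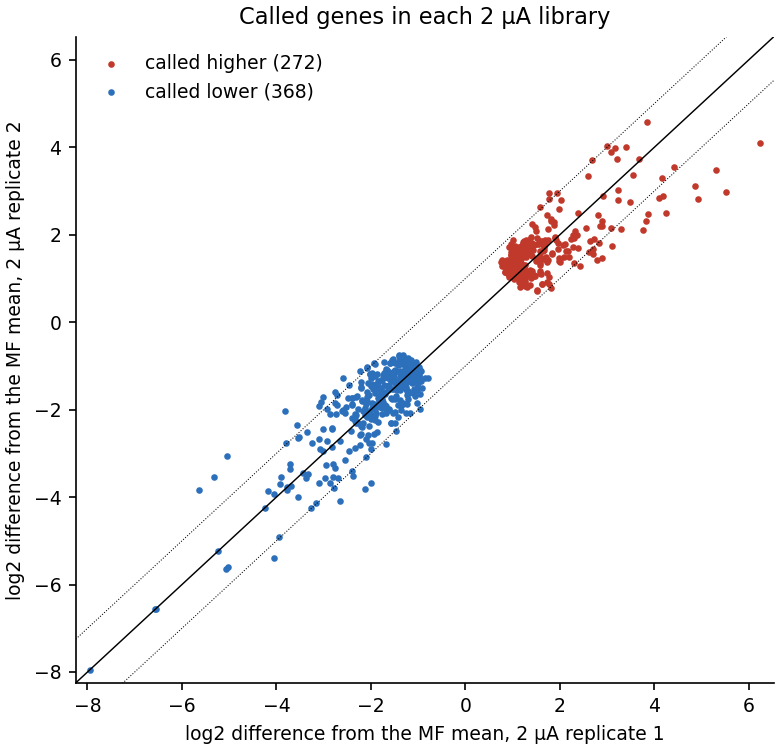
Log2 difference from the MF mean of each called gene in 2 µA replicate 1 (horizontal axis) and replicate 2 (vertical axis), with the line of equality and dotted lines at 2-fold either side. All 272 higher genes lie above 0 and all 368 lower genes below 0 on both axes, and the points with the largest rises in replicate 1 fall under the line.

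The higher and lower genes were also described in the groups that took no part in the contrast. The comparisons share libraries, so the values are set side by side and their likeness is not a result. For the 272 higher genes the median log2 fold change from MF was 1.45 at 2 µA and 1.358 at 1 µA. The median of MF relative to CF was -1.10, and that of 2 µA relative to CF was 0.35. For the 368 lower genes these medians, in the same order, were -1.65, -1.47, 1.61 and -0.07. Over all tested genes each of the 4 medians lay between -0.03 and 0.003, near 0 largely by the scaling of the libraries.

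Against CF, the level at 2 µA was less uniform. Both 2 µA libraries were above both CF libraries in 134 of the higher genes, below both in 11 and overlapped with them in 127. Of the lower genes, 129 were above CF, 143 below and 96 overlapped. Of all tested genes, 24.2% had both 2 µA libraries above CF and 24.5% both below. The quartiles of the lower genes for 2 µA against CF were -0.96 and 0.83 on the log2 scale, so genes that fell to well below the CF level stood beside genes that stayed above it. For the higher genes these quartiles were -0.004 and 1.20.

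The currents were compared directly, 2 µA against 1 µA, in the same fit. This test called 1 gene, or 0.00722% of the 13849, and 72 genes (0.52%) had an unadjusted p below 0.05. That is a smaller share than a cut at 0.05 would let through without any difference, so the test was cautious here. The few calls do not show that the currents acted alike. The difference of 2 µA from 1 µA had a median of 0.07 on the log2 scale over the 272 higher genes, with quartiles of -0.07 and 0.17. Over the 368 lower genes the median was -0.10, with quartiles of -0.33 and 0.07. The 95% interval of a single gene reached 0.60 to either side in the median higher gene and 0.65 in the median lower gene. It stayed within 2-fold in 205 of the higher and 216 of the lower genes. For the remaining 67 and 152 genes the interval reached past 2-fold, so a difference of that size or larger is not excluded. ENSRNOG00000009596, described next, is among the 152. Over all 13849 tested genes the interval reached 0.42 to either side in the median gene and stayed within 2-fold in 10533.

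The gene called was ENSRNOG00000009596, named because it was the only one. The estimated counts list it at 0 in each 2 µA library, at 450 and 412 counts in MF, at 645 and 408 at 1 µA, and at 1173 and 740 in CF. It is also one of the 368 genes called lower than in MF (adjusted p = 0.00338 in edgeR's test). The matrix of whole-number counts gave it 2741 and 2960 counts at 2 µA and 2434 and 2142 in MF, a log2 fold change of 0.11 (adjusted p = 0.540 in edgeR's test), so the fall is found in 1 of the 2 tables.

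That matrix of 13341 genes is a second count of the same 8 libraries. Its pipeline is not given in the sources used here, and the labels describe STAR alignment. Fitted in the same way, it gave 580 calls among 13339 genes (4.35%), 248 higher and 332 lower at 2 µA. Of the 640 genes, 560 were tested in the matrix, and 466 of these (83.2%) were called there in the same direction, 195 higher and 271 lower. None was called in the opposite direction. Those 466 were 88.6% of the 526 genes called in the matrix and tested in both tables.

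All 245 higher genes found in the matrix had the same sign there, as had 312 of the 315 lower genes. The fold changes themselves were close, with a median absolute difference of 0.05 on the log2 scale for the higher and 0.03 for the lower genes. A difference of over 1 on that scale was seen in 10 of the 560 genes. Of the 94 genes not called in the matrix, 84 had an unadjusted p below 0.05 in it. The choice of count table thus moved genes across the threshold more than it changed their fold.

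**Figure D5:**
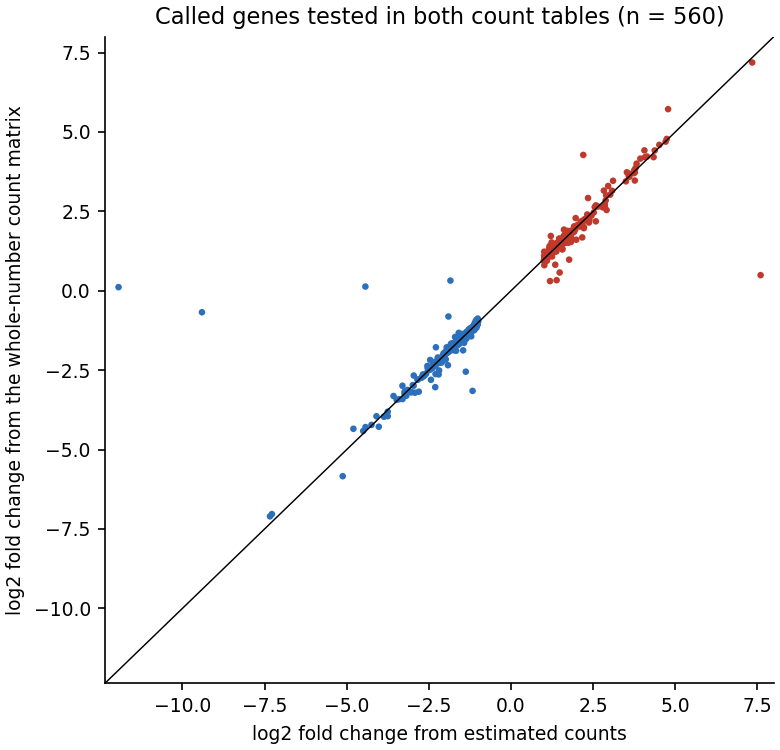
Log2 fold change of 2 µA against MF from the matrix of whole-number counts (vertical axis) against that from the estimated counts (horizontal axis) for the 560 called genes tested in both, with the line of equality. Most points lie on the line, with a median absolute difference of 0.05 for the higher and 0.03 for the lower genes. Some points at the far left and 1 at the far right lie near 0 on the vertical axis. These genes changed strongly in the estimated counts and by less than 2-fold in the matrix.

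The authors' normalized table divides each estimated count by a factor that holds the mean length of the transcripts assigned to the gene in that library. From these factors the mean transcript length at 2 µA relative to MF was recovered for 13588 genes. It moved by more than 1.25-fold in 54 genes (0.397%), and in 37 of these the 2 µA and MF libraries did not overlap, 18 longer and 19 shorter at 2 µA. Between the MF replicates themselves, 104 genes differed by more than 1.25-fold in length, and between the 2 µA replicates 81. These are differences between single libraries, while the shift between groups is one of group means, which vary less. The counts of genes are therefore not on the same measure. Of the 619 called genes with a length, 0.323% moved by that much.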

How the data were processed

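RNA sequencing of 8 libraries was used, 2 each of CF, MF, 1 µA and 2 µA, grouped by their sample labels. The authors deposited estimated counts per gene for 21867 Ensembl genes, quantified by salmon against rn6 transcripts and summed to genes by tximeta; 10.5% of the values are not whole. A second deposited table gives whole counts of 13341 genes, all of which sum to 80 or more. In the authors' normalized table, held here as a signal, estimated counts were scaled by DESeq2 factors specific to gene and library. Per the labels' processing notes, STAR and DESeq2 1.28.1 were used on rn6; the methods give salmon for the estimated counts. The deposited variance stabilised values were not used.

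Estimated counts were rounded, and edgeR 4.0.16 was run in R 4.3.3 (with limma 3.58.1) using filterByExpr, TMM scaling, robust dispersions and quasi-likelihood F tests, with 1 coefficient per group over all 8 libraries and 4 residual degrees of freedom. The standard error of a log2 fold change is its size over the root of F. Count ratios were given exact 95% (Clopper-Pearson) intervals, which cover counting error only. Figures were drawn with Python 3.11.15 and matplotlib 3.10.9.

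Genes were named by rule as the 2 highest and 2 lowest fold changes among genes called in the same direction in both count tables. Hand-written lists of symbols, among them markers of fibroblasts and of other cell types, were not analysed here for want of a table that pairs symbols with the IDs, and no promoter sequence could be assigned. The comparison, the lists and the rules were chosen with earlier results of these data known. Alternatives were DESeq2 1.42.0, other scalings, filters, thresholds and sets of libraries, the matrix, length offsets from the normalized table and a replicate block.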

Additional observations from a re-analysis of the deposited data

Results flagged for a closer look

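In the estimated counts the 2 µA and 1 µA libraries differed in ENSRNOG00000009596, with an adjusted p of 0.0248 for the difference itself in edgeR's test. It had 0 estimated counts in both 2 µA libraries and 645 and 408 at 1 µA. In the matrix of whole-number counts the 1 µA libraries had 2912 and 2810 counts and the 2 µA libraries 2741 and 2960. There the log2 fold change of 2 µA against 1 µA was -0.07, with an unadjusted p of 0.559 in edgeR's test. The difference between the currents is thus found in the estimated counts alone. The cause of the difference between the tables was not tested.

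The matrix lists 1463 gene IDs that the estimated counts lack. Of 1462 tested, 52 were called between 2 µA and MF, 23 higher with a median log2 fold change of 1.35 and 29 lower with a median of -1.67. They were 3.56% of those tested, against 4.49% of the genes that both tables share. Their median count over the 4 libraries was 185, against 330 for the shared genes called.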

How the results depend on the processing

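For the changes given here the cause was not tested. The count of genes called at 2 µA against MF (640) stayed within 1.5 times with RLE (641) and upper quartile scaling (690), no filter, a minimum of 10 counts per library, the matrix, only the 2 groups in the fit, length offsets and without all-or-none genes. It was 1037 with DESeq2 on 17184 genes with any count, of which 629 were among the 640. With DESeq2 on the 13849 genes of the filter, an alternative added after seeing the data, it was 1040. It was 1097 at an adjusted p below 0.05 alone and 49 at an adjusted p below 0.01. The balance was near even with upper quartile scaling, at 337 higher and 353 lower genes, against 272 and 368 in the main fit. RLE scaling called 265 higher and 376 lower, and DESeq2 on genes with any count 461 and 576. Leaving out 1 library gave 9 to 996 genes, lowest without MF replicate 1. Between 2 µA and 1 µA, 1 gene was called by edgeR (72 with an unadjusted p below 0.05), 8 by DESeq2 (7 on the filtered genes), and 0 with a minimum of 10 counts per library, in the matrix, with only these groups in the fit and at an adjusted p below 0.01 (49, 73, 86 and 72 with an unadjusted p below 0.05). Leaving out 1 library gave 0 to 1 gene, with 55 to 784 at an unadjusted p below 0.05. The labels tie no replicate number to a batch or animal, and the deviations of same-numbered libraries from their group means correlated from -0.172 to 0.242 over the pairs of groups, so the numbers were not taken to pair the libraries. The replicate block gave 485 genes at 2 µA against MF, 456 of them among the 640, and 1 between the currents, and it ended the call of ENSRNOG00000022432 (adjusted p = 0.0752 from edgeR), which was also lost with only the 2 groups in the fit (0.0846). With crossed replicate numbers, a choice made after seeing the data, the block gave 508 genes and 0 genes (78 with an unadjusted p below 0.05), and ENSRNOG00000022432 again missed the threshold (adjusted p = 0.0504 from edgeR). With the leave-outs, 8 of 19 alternatives lost that call. The fold changes of the 4 genes named by rule changed sign under no alternative. Depth limits genes with few counts, as the width of the counting intervals of 3 of them shows.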
